A study of Mus musculus with 8 samples.

Results

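The cytosolic ribosomal protein genes encode the proteins of the large and the small subunit of the ribosome outside mitochondria. They were taken from Affymetrix mouse expression arrays as the genes whose platform symbol begins with Rpl or Rps and a number, or is Rplp0, Rplp1, Rplp2 or Rpsa, with the Rps6k kinases left out. Each gene was read from the probe set with the highest mean over the 8 arrays, and a probe set had to carry a single symbol. This gave 49 of the 18194 genes measured, 26 of the large subunit and 23 of the small subunit. Of these, 46 were among the 11386 genes bright enough to be tested, and Rpl39l, Rpl3l and Rps16 were not.

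The arrays compared spleen cells from leukemic mice that expressed CBFb-SMMHCd179-221 (truncated), sampled 3 weeks after birth, with spleen cells from leukemic mice that expressed CBFb-SMMHC (full-length), sampled 2 months after the mutagen ENU was given. CBFb-SMMHC is a leukemia fusion of CBFb, a subunit of core-binding factor, with the tail of smooth muscle myosin, and the other form lacks a stretch of it. Each genotype had 2 animals. Animal 1 had 1 array and animal 2 had 3. No ENU treatment is given for the truncated mice and no age for the full-length mice, so genotype, mutagen and age cannot be told apart. All 8 samples are labelled as chimera, an animal that mixes cells of different genotypes, while the series text calls the full-length mice knock-in, and the share of cells with each fusion is not known here.

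A ribosome holds a single copy of nearly every ribosomal protein, so the cell makes these proteins in matched amounts. Their mRNAs are among the most abundant of dividing cells. Most of them begin with a 5′ terminal oligopyrimidine tract, a C followed by a run of C and T, through which mTOR and LARP1 control their translation together. In the blood system, loss of a copy of certain ribosomal protein genes causes Diamond-Blackfan anaemia in humans, a failure of red cell production.

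The stretch around the transcription start is shown because the tract is the shared sign of this gene family and is independent of how the genes were chosen. Of the 49 genes, 43 had an entry in the RefSeq promoter table (GRCm38.p6), with 51 starts. Sequences run from 30 bases before the annotated start to 15 bases from it on, 5′ to 3′ on the strand of the gene, and capitals mark the tract. The lines give 5 genes with bright probe sets, then 4 with dim ones that are described below, and last Rpl37, in which no tract was found at the annotated start.
Rps24 (chr14:24490648-24490692, plus strand): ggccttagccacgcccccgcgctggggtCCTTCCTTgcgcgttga
Rplp2 (chr7:141447621-141447665, plus strand): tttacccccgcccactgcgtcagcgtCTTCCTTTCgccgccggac
Rps10 (chr17:27635230-27635274, minus strand): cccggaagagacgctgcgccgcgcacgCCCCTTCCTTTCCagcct
Rps18 (chr17:33955651-33955695, minus strand): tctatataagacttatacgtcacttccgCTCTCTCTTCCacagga
Rpl38 (chr11:114668550-114668594, plus strand): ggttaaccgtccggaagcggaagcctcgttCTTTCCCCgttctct
Rps6 (chr4:86857353-86857397, minus strand): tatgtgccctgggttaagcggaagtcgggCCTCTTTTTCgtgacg
Rpl12 (chr2:32961682-32961726, plus strand): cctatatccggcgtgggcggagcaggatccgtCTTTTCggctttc
Rpl14 (chr9:120571487-120571531, plus strand): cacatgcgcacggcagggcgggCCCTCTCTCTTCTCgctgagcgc
Rps27 (chr3:90213634-90213678, minus strand): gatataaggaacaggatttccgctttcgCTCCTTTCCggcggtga
Rpl37 (chr15:5116583-5116627, plus strand): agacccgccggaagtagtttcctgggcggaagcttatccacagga
A tract was counted where a C began within 10 bases of the annotated start and at least 4 further C or T followed, on the gene's strand. It was present in 27 of 43 ribosomal protein genes (62.8%), against 9297 of 27025 genes in the table (34.4%). Among the genes with a mean log2 signal of 11 or more it was present in 19 of 31, and among the others in 8 of 12. The ETS-type motif CCGGAAG, searched on both strands of the whole promoter window, was present in 21 of 43 genes (48.8%), against 9.93% of all genes. On both strands, AANATGGC, the core of the YY1 motif, was present in 7 genes (16.3%), against 6.96% of all genes. GGGCGG, a GC box, was present in 25 (58.1%), against 38.2%, and TATAAA in 6 of 43, against 15.7%. These are letters in a window and not evidence of binding, and RefSeq starts can lie some bases away from the start used in these cells.

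The 8 arrays did not fall by genotype alone. The 2 arrays numbered 1 of each genotype resembled each other across animals, and in full-length mice these 2 arrays stood apart from arrays 2 and 3 of animal 2. The erythroid list (20 of 26 genes measured, 1 below the array median throughout) had medians of 9.21, 9.47, 8.34 and 8.35 on the truncated arrays, against 10.58, 10.36, 8.35 and 8.34 on the full-length arrays, in the order animal 1, then arrays 1 to 3 of animal 2. Its summed level was 13.63 to 14.30 in truncated and 13.76 to 15.30 in full-length arrays (log2). The primary granule list (9 of 12 measured, none below the array median throughout) had summed levels of 14.38 to 14.86 in truncated and 12.76 to 13.40 in full-length arrays. Such a sum follows the brightest genes of a list. In the same order, the primary granule medians were 11.29, 11.45, 11.62 and 11.70 on the truncated arrays. On the full-length arrays they were 5.55, 5.12, 10.39 and 10.38. Secondary granule genes (11 of 14) lay between 15.41 and 15.55 in truncated and between 12.66 and 14.30 in full-length arrays. Monocyte and macrophage genes (16 of 18) lay between 13.08 and 13.28 in truncated and between 11.42 and 11.83 in full-length arrays. Blast and progenitor genes (12 of 12, 2 of them below the array median throughout) lay between 11.07 and 11.41 in truncated and between 11.41 and 11.86 in full-length arrays. Their medians overlapped, at 6.04 to 6.48 in truncated and 5.40 to 6.17 in full-length arrays. Among the 10 tested, 7 were higher and 3 lower in truncated mice, with a median difference of 0.66. B cell genes (11 of 12, 4 below the array median throughout) lay between 8.60 and 9.35 in truncated and between 8.14 and 8.24 in full-length arrays. Their medians were 4.66 and 4.42 on truncated arrays numbered 1, 5.73 and 5.94 on truncated arrays 2 and 3, and 4.38 to 4.63 in full-length arrays. Plasma cell genes (10 of 11, 2 below the array median throughout) lay between 11.01 and 12.28 in truncated and between 10.23 and 11.23 in full-length arrays. Their medians were 4.46 and 4.83 on truncated arrays numbered 1, 6.37 and 6.46 on truncated arrays 2 and 3, and 4.77 to 5.05 in full-length arrays. T and NK cell genes (11 of 14, 3 below the array median throughout) lay between 8.85 and 9.09 in truncated and between 8.69 and 8.93 in full-length arrays. These lists thus differed between arrays as well as between genotypes, and their part in the values below was not tested.

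The ribosomal protein genes lay close together on all 8 arrays. Their median log2 signal over the 46 tested genes was 12.81 in truncated animal 1 and 12.89 in truncated animal 2, against 12.91 and 12.88 in the full-length animals. The median difference, truncated minus full-length, was 0.018, with 25 genes higher and 21 lower, beside a median of -0.014 over all 11386 genes with 48.4% of them higher and 51.6% lower. In bulk spleen cells, fewer cells of a type and less RNA per cell cannot be told apart. The median size of the difference, whatever its sign, was 0.0826 for the ribosomal protein genes and 0.258 for all genes, and the median range over the 8 arrays was 0.257 and 0.860.

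None of the 46 genes passed an adjusted p of 0.05 (limma with Benjamini-Hochberg adjustment over all genes tested), and the share of all genes that passed was 0%. At an unadjusted limma p under 0.05, 2 of the 46 were higher (Rps4l and Rps6) and 0 were lower, beside 8.79% and 5.3% of all genes. The 4 truncated arrays lay entirely above the 4 full-length arrays for 3 genes (Rps4l, Rps6 and Rpl37a), beside 10.3% of all genes, and entirely below for Rpl8 alone, beside 8.77%. A difference of more than 0.5 log2 units was seen for 5 of the 46 genes (10.9%), beside 26.3% of all genes, and of more than 1 unit for 2 (4.35%), beside 10.2%. Rps4l is among the genes counted as higher, as not overlapping and as more than 0.5 or 1 apart. It was kept for testing through the truncated animals alone, so it adds no weight there. With the array number as a replicate block and the animal as a random block, limma called 596 of all genes, with 0 of the 46 among them (adjusted p = 0.0949 for Rps6, the smallest).

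**Figure D1:**
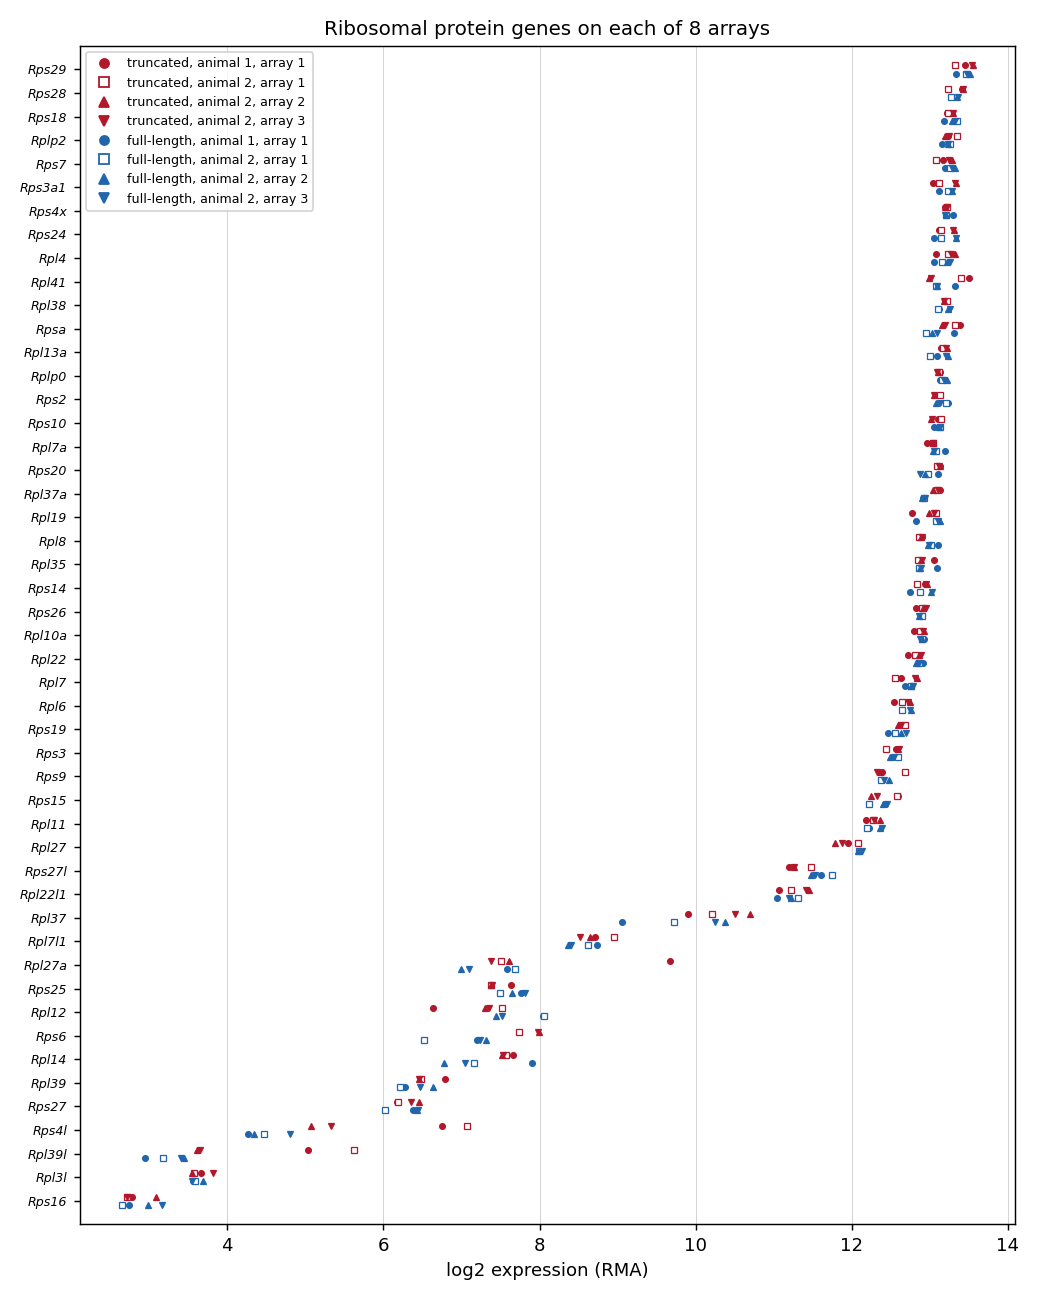
Log2 signal of the 49 ribosomal protein genes on each of the 8 arrays, with truncated arrays in red and full-length arrays in blue, 4 points each per gene. The points of each of the 36 genes at 11 or above lie within 0.551 log2 units, and among these only Rpl37a and Rpl8 have genotypes that do not overlap.

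The genes fell into a bright and a dim set by the mean signal of their probe set, with no gene between 10.09 (Rpl37) and 11.24 (Rpl22l1). The border of 11 was set with these values known. Probe sets differ in how well they bind, so this order is one of probe-set signal and not of mRNA amount. All 36 bright genes lay above the 99th percentile of the 18194 genes measured, and 34 of the 69 genes with a mean of 12 or more (49.3%) were ribosomal protein genes. The bright genes split evenly, 18 higher and 18 lower in truncated mice, with differences from -0.33 to 0.18 and a median of -0.0015. The difference was within 0.1 of 0 for 28 of the 36 and within 0.2 for 35. Adjusted p ranged from 0.607 to 1.00 (limma). The SD between the 2 animals had a median of 0.0417 in truncated and 0.0656 in full-length mice. The fit shares the spread of all genes, and its 95% intervals reached 0.535 to 0.634 log2 units to either side, so differences of that size are not excluded by the test.

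Other genes with a mean of 11 or more had larger differences, though their signals were lower on the whole, with a median level of 11.52 against 13.02 for the ribosomal protein genes. The 173 other genes had a median size of difference of 0.189, against 0.0525 for the 36 ribosomal protein genes, and 30 of them differed by more than 0.5, against 0 of the 36. With a mean of 12 or more, the 35 other genes had a median size of 0.165 at a median level of 12.32, and the 34 ribosomal protein genes of 0.0515 at 13.05. Genes matched in level were not compared. The highest value on any array was 14.1, and whether the brightest probe sets were near the limit of the scanner was not tested.

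**Figure D2:**
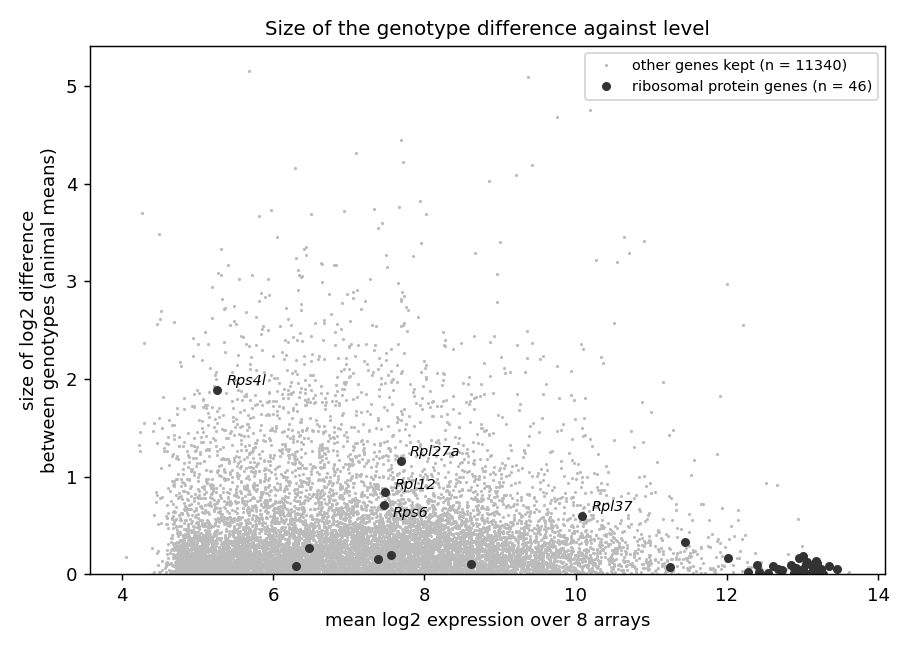
Size of the difference between truncated and full-length mice (log2 units, y axis) against mean log2 signal (x axis) for the ribosomal protein genes and for all other genes tested. At signals of 12 or more the 34 ribosomal protein genes have a median size of 0.0515 and the 35 other genes of 0.165.

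Within the large subunit, the stalk proteins recruit elongation factors to the ribosome. Rplp0, the base of the stalk, had signals of 13.13 in animal 1 and 13.12, 13.10 and 13.09 in animal 2 of the truncated mice, against 13.13, 13.16, 13.22 and 13.18 in full-length mice, a difference of -0.04. Rplp2, a stalk protein that pairs with the product of Rplp1, had 13.23, 13.35, 13.19 and 13.25 in truncated and 13.16, 13.25, 13.23 and 13.24 in full-length mice, a difference of 0.05. The arrays of the genotypes overlapped for both. Rplp1 itself had no probe set with a single symbol and was not analysed here.

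Rpl11 binds MDM2 when ribosome assembly fails and so links the ribosome to p53. Its signals were 12.18, 12.27, 12.36 and 12.29 in truncated and 12.22, 12.19, 12.36 and 12.39 in full-length mice, a difference of -0.02. Rpl41, the smallest ribosomal protein, ranged more widely, with 13.50, 13.40, 12.99 and 13.02 in truncated and 13.32, 13.08, 13.09 and 13.09 in full-length mice, a difference of 0.12. Its high values were on arrays numbered 1, and the genotypes overlapped.

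Rpl8, a protein of the large subunit near the peptidyl transferase centre, had 12.90, 12.86, 12.89 and 12.90 in truncated mice, against 13.11, 13.02, 12.97 and 12.98 in full-length mice. All 4 truncated arrays were lower, by 0.16 on the means (12.89 ± 0.01 and 13.05 ± 0.08, SD, n = 2 animals each), and the difference did not pass (limma, adjusted p = 0.827). Rpl37a, a zinc-binding protein of the large subunit, had 13.13, 13.09, 13.04 and 13.10 in truncated mice, against 12.92, 12.93, 12.90 and 12.94 in full-length mice. All 4 truncated arrays were higher, by 0.18 (13.10 ± 0.03 and 12.92 ± 0.005, SD, n = 2 animals each; limma, adjusted p = 0.801). Other probe sets of Rpl37a differed by -0.06 and -0.34, so its direction depends on the probe set.

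Rpl27 had 11.95, 12.08, 11.78 and 11.87 in truncated and 12.09, 12.09, 12.08 and 12.12 in full-length mice, a difference of -0.16 (limma, adjusted p = 0.823). The ranges touched, since array 1 of truncated animal 2 lay at the low end of the full-length arrays. Rpl7a had 12.96, 13.04, 13.04 and 13.04 in truncated and 13.20, 13.08, 13.03 and 13.05 in full-length mice, a difference of -0.13. The other bright genes of the large subunit were Rpl4, Rpl6, Rpl7, Rpl10a, Rpl13a, Rpl19, Rpl22, Rpl22l1, Rpl35 and Rpl38, with differences from -0.10 (Rpl22) to 0.08 (Rpl22l1).

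In the small subunit, Rpsa, also known as a laminin receptor, had 13.39, 13.32, 13.15 and 13.19 in truncated and 13.31, 12.95, 13.02 and 13.09 in full-length mice, a difference of 0.14. Rps20 had 13.13, 13.10, 13.12 and 13.11 in truncated and 13.10, 12.97, 12.93 and 12.88 in full-length mice, a difference of 0.11. The genotypes overlapped for Rpsa, and for Rps20 by full-length animal 1 alone. Rps29, the gene with the highest mean signal, had 13.44, 13.32, 13.55 and 13.54 in truncated and 13.33, 13.46, 13.51 and 13.47 in full-length mice, a difference of 0.05.

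Rps14 is known in humans from the loss of chromosome arm 5q in myelodysplasia, where its shortage impairs red cell formation. It had 12.93, 12.84, 12.96 and 12.96 in truncated and 12.75, 12.87, 13.01 and 13.03 in full-length mice, a difference of 0.07. Rps19, the gene most often mutated in Diamond-Blackfan anaemia, had 12.63, 12.68, 12.60 and 12.63 in truncated and 12.46, 12.55, 12.63 and 12.70 in full-length mice, a difference of 0.09. Both overlapped between the genotypes. Of 19 genes listed for that anaemia, 11 were tested, with 4 higher and 7 lower, a median difference of -0.016, 0 past an adjusted p of 0.05 (limma) and none more than 0.2 apart. The remaining bright genes of the small subunit were Rps2, Rps3, Rps3a1, Rps4x, Rps7, Rps9, Rps10, Rps15, Rps18, Rps24, Rps26 and Rps28, with differences from -0.09 (Rps2) to 0.10 (Rps15), and Rps27l, which is given with the paralogues.

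**Figure D3:**
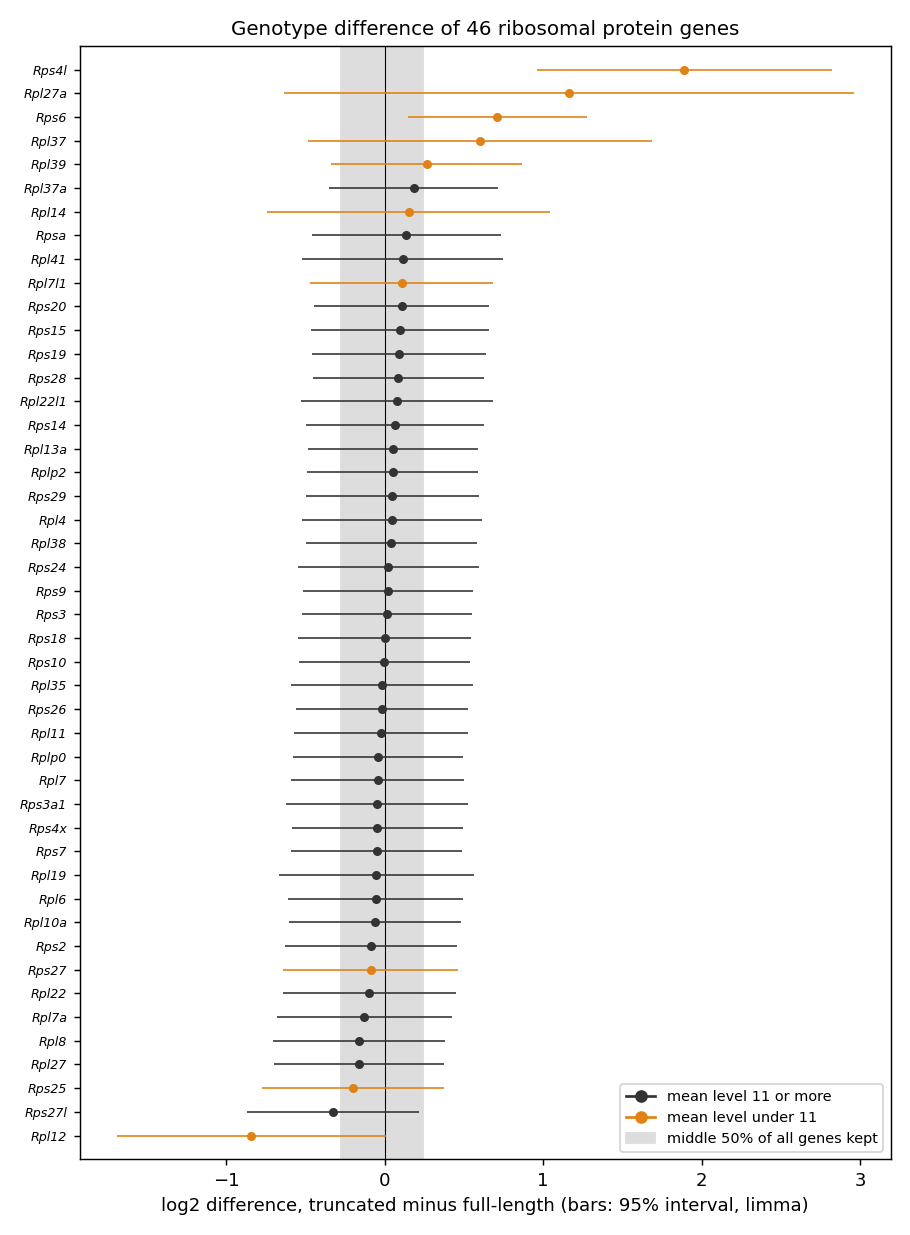
Difference in log2 signal, truncated minus full-length, of the 46 tested ribosomal protein genes with 95% intervals from limma (n = 2 animals each). The grey band marks the middle 50% of all 11386 genes, and the intervals of Rps4l and Rps6 are the ones that do not reach 0, with unadjusted limits. Rps4l was kept for testing through the truncated animals alone.

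Some ribosomal proteins have a second gene whose product can take the place of the usual one, often in particular tissues. Rps27l, a relative of Rps27 that p53 can induce, had the largest difference among the bright genes. It had 11.20, 11.48, 11.26 and 11.26 in truncated mice, against 11.60, 11.75, 11.48 and 11.52 in full-length mice. The truncated values were lower within each array number, and the ranges touched at array 1 of truncated animal 2. The means were 11.27 ± 0.09 and 11.59 ± 0.01 (SD, n = 2 animals each), a difference of -0.33, 1.25-fold higher in full-length mice (limma, adjusted p = 0.607). Its other probe sets differed by -0.27 and -0.26. Rps27 itself was read from a dim probe set, with 6.17, 6.19, 6.45 and 6.35 in truncated and 6.38, 6.02, 6.43 and 6.45 in full-length mice, a difference of -0.09.

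Rps4l is a mouse relative of the X-linked Rps4x. Its signals were 6.76, 7.07, 5.07 and 5.32 in truncated mice, against 4.26, 4.47, 4.34 and 4.80 in full-length mice. All truncated arrays were higher, and the 2 truncated arrays numbered 1 were higher than the others. The means were 6.29 ± 0.66 and 4.40 ± 0.20 (SD, n = 2 animals each), a difference of 1.89 (limma, adjusted p = 0.118). The full-length values lay near or below the array medians of 4.71 to 4.78, so no fold is given. The difference was 2.55 between the arrays numbered 1 and 0.62 between arrays 2 and 3. Rps4l was kept for testing through the truncated animals alone, so its place among the tested genes already depended on its being higher there, and its p supports nothing further. Rps4x had 13.19, 13.22, 13.19 and 13.22 in truncated and 13.29, 13.21, 13.20 and 13.19 in full-length mice, a difference of -0.05.

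Rpl39l, a relative of Rpl39 known for its expression in male germ cells, was too dim to be tested. Its signals were 5.04, 5.62, 3.61 and 3.65 in truncated and 2.95, 3.18, 3.45 and 3.40 in full-length mice. As for Rps4l, the 2 truncated arrays numbered 1 were the highest. Rpl39 had 6.79, 6.48, 6.45 and 6.46 in truncated and 6.28, 6.22, 6.63 and 6.47 in full-length mice, a difference of 0.26 with overlapping arrays.

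Rpl22 and its relative Rpl22l1 act in opposite ways on blood stem cell formation in zebrafish. Rpl22 had 12.72, 12.81, 12.86 and 12.88 in truncated and 12.92, 12.85, 12.83 and 12.86 in full-length mice, a difference of -0.10. Other probe sets of Rpl22 differed by 0.10 and 0.03, so its direction depends on the probe set. Rpl22l1 had 11.07, 11.22, 11.45 and 11.42 in truncated and 11.04, 11.30, 11.22 and 11.20 in full-length mice, a difference of 0.08. The arrays of the genotypes overlapped for both. Rpl7l1 and Rpl7 differed by 0.11 and -0.04. Rpl3l, the muscle form of Rpl3, lay between 3.55 and 3.81 in truncated and between 3.55 and 3.68 in full-length mice.

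The larger differences came from dim probe sets. Of the 10 tested genes with a mean below 11, 7 were higher and 3 lower, and 5 differed by more than 0.5. Rps4l, kept for testing through the truncated animals alone, is among both the 7 and the 5. Their median range over the 8 arrays was 1.27, against 0.237 for the bright genes. Rps6 encodes the small subunit protein phosphorylated by the S6 kinases below mTOR. It had 7.74, 7.74, 7.99 and 7.98 in truncated mice, against 7.19, 6.52, 7.31 and 7.23 in full-length mice. All truncated arrays were higher, by 0.71 on the means (7.82 ± 0.12 and 7.11 ± 0.12, SD, n = 2 animals each), or 1.64-fold. The 95% interval was 0.15 to 1.28, with no adjusted call (limma, unadjusted p = 0.023, adjusted p = 0.259). These values are of a dim probe set, at a mean of 7.46, and whether it follows the amount of Rps6 mRNA was not tested. The difference was 0.88 between arrays numbered 1 and 0.71 between arrays 2 and 3. A second probe set of Rps6, at a mean of 2.89, differed by 0.09.

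Rpl12, part of the base of the stalk, had 6.64, 7.52, 7.30 and 7.35 in truncated mice, against 8.04, 8.06, 7.44 and 7.52 in full-length mice. The truncated arrays were lower within each array number, and the ranges overlapped at array 1 of truncated animal 2. The means were 7.02 ± 0.53 and 7.86 ± 0.26 (SD, n = 2 animals each), a difference of -0.84 (limma, unadjusted p = 0.051, adjusted p = 0.358). It was -0.97 between arrays numbered 1 and -0.15 between arrays 2 and 3.

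Rpl27a had 9.67 in truncated animal 1 and 7.51, 7.61 and 7.38 in truncated animal 2, against 7.59, 7.68, 6.99 and 7.09 in full-length mice. A single array of truncated animal 1 stood above all others, and the remaining values overlapped. The difference of 1.16 (8.58 ± 1.53 and 7.42 ± 0.23, SD, n = 2 animals each; limma, adjusted p = 0.567) was 0.08 without that animal. Rpl37, read from an x_at probe set, which can match related sequences, had 9.90, 10.21, 10.69 and 10.51 in truncated and 9.05, 9.73, 10.37 and 10.25 in full-length mice. Its difference of 0.60 (limma, adjusted p = 0.640) was 0.07 without full-length animal 1 and -0.13 without both full-length arrays numbered 1.

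Rpl14 had 7.65, 7.57, 7.51 and 7.53 in truncated and 7.90, 7.16, 6.77 and 7.04 in full-length mice, a difference of 0.15. Rps25, which is needed for initiation at certain viral and cellular mRNAs, had 7.63, 7.38, 7.37 and 7.39 in truncated and 7.76, 7.50, 7.65 and 7.81 in full-length mice, a difference of -0.20. Both overlapped between genotypes, Rps25 by the single array of truncated animal 1. Rps16, with values of 2.71 to 3.08 in truncated and 2.66 to 3.17 in full-length mice, was too dim to be tested.

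Dim probe sets also stood apart within genes that had a bright one. For the bright genes, the 31 other probe sets with a mean of 11 or more differed by -0.27 to 0.30 between the genotypes, and the 21 below 11 by -1.08 to 0.42. The widest was a probe set of Rps24 at a mean of 5.46, with 4.75, 4.63, 5.39 and 5.49 in truncated and 6.43, 6.22, 5.36 and 5.39 in full-length mice, while the bright probe set of Rps24 differed by 0.02. The gap lay in the arrays numbered 1, and arrays 2 and 3 overlapped. A further 110 probe sets carried several symbols of which at least 1 was a ribosomal protein gene. They are not assigned to genes here, and their differences had a median of 0.0014, with 56 higher and 54 lower.

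The ribosomal protein genes also differed by array number, as all genes did, and by less. The median size of the difference between arrays 2 and 3 and the arrays numbered 1 was 0.106 in truncated and 0.105 in full-length mice. Over all genes it was 0.240 and 0.336. Arrays 2 and 3 of animal 2 both lay above both arrays numbered 1 for 20 of the 46 genes in truncated mice (43.5%), beside 27.9% of all genes, and for 19 in full-length mice (41.3%), beside 36.1%. They both lay below for 14 genes in truncated mice, beside 36.7% of all genes, and for 11 in full-length mice, beside 34.4%. In both genotypes at once, arrays 2 and 3 lay above both arrays numbered 1 for 13 genes (28.3%), beside 13.9% of all genes. They were Rpl4, Rpl6, Rpl11, Rpl13a, Rpl37, Rps3a1, Rps6, Rps7, Rps14, Rps24, Rps27, Rps28 and Rps29. The opposite order in both genotypes was found for Rpl14, Rpl7l1 and Rps2 (6.52%), beside 16.6% of all genes. The labels do not say what the array numbers stand for, and the series text speaks of 2 independent experiments per genotype. If an array number marks anything more than a repeat of the same animal, the SD and n by animal given here do not describe it. The bright probe set of Rps24 had 13.12 and 13.14 on truncated arrays numbered 1 and 13.31 and 13.30 on arrays 2 and 3, and 13.05, 13.14, 13.33 and 13.33 in full-length mice in the same order.

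**Figure D4:**
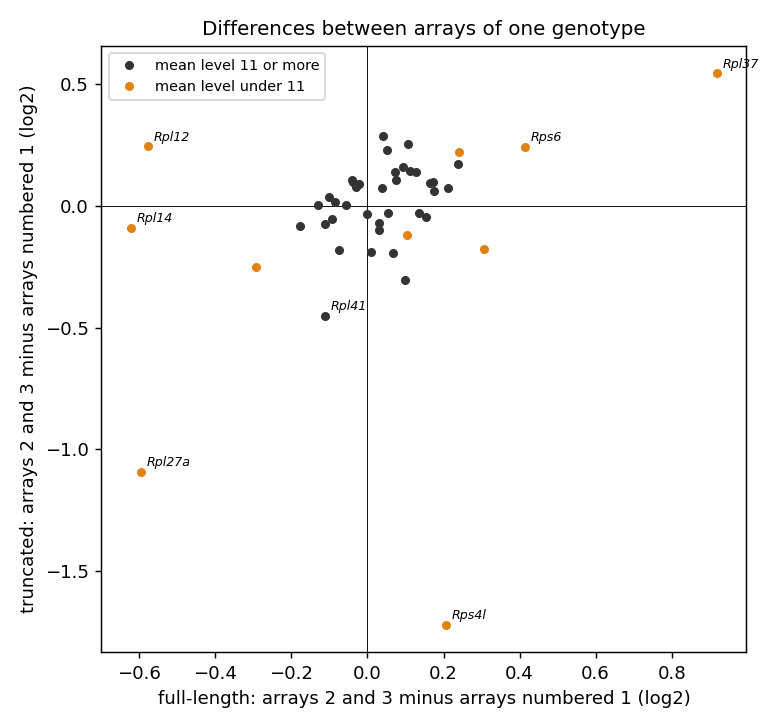
Mean of arrays 2 and 3 minus mean of the arrays numbered 1 (log2 units) for each tested ribosomal protein gene, in full-length mice on the x axis and in truncated mice on the y axis. Points in the upper right and lower left moved the same way with the array number in both genotypes, and 13 genes lie above on every array in both.

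With array 1 of every animal alone, limma called 2998 of the 11386 genes, 14.5% higher and 11.9% lower. Among the 46 ribosomal protein genes it called 3 higher (6.52%), namely Rps4l by 2.55 (adjusted p = 4.5e-09), Rps6 by 0.88 (adjusted p = 0.0070) and Rpl37 by 0.67 (adjusted p = 0.0466), and 1 lower (2.17%), Rpl12 by -0.97 (adjusted p = 0.0054). Rps4l was among the tested genes through the truncated animals alone, as said above, so its call carries no weight. None of the 36 bright genes was called. Both shares among the ribosomal protein genes were below those over all genes.

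The genes that work with the ribosomal proteins were read from 4 lists, and limma called 0 members of any of them at an adjusted p of 0.05. With the array number as a replicate block and the animal as a random block it called Nob1. That was 1 of the 19 genes in its list, beside 596 of all 11386 genes. With array 1 of every animal alone, 26.3% of all genes were called. From the lists, limma then called Abce1 (1 of 5), Eif3e and Hnrnpa1 (2 of 19), Larp1 (1 of 15), and Heatr3, Nmd3 and Nob1 (3 of 19). Each of these shares was below that over all genes. Of the 5 measured ribosome components and recycling factors outside the rule for symbols, 1 had a higher and 4 a lower value, with a median difference of -0.12, which was -0.02 without both full-length arrays numbered 1. Abce1, which splits ribosomes after termination, was at 9.26 ± 0.13 in truncated and 9.97 ± 0.31 in full-length mice (difference -0.71, limma, adjusted p = 0.319), and Nemf, a ribosome quality control factor, differed by -0.35. Of 19 other translation genes known or thought to carry an oligopyrimidine tract, 7 had a higher and 12 a lower value, with a median of -0.07. The median was -0.0015 without full-length animal 2, -0.02 without truncated animal 1, -0.19 without truncated animal 2 and 0.02 on arrays 2 and 3 alone, so its direction is not settled. Eif3e, a subunit of initiation factor 3, differed by -0.56 (limma, adjusted p = 0.417) with no overlap between the arrays, and Hnrnpa1, an RNA-binding protein, by -0.71. Arrays that did not overlap were found for 2 of these 19 genes, beside 19% of all genes.

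Of 15 regulators of the translation of ribosomal protein mRNAs, 2 had a higher and 13 a lower value, with a median of -0.13. Without both full-length arrays numbered 1, the median was -0.28, with 5 higher and 10 lower. Larp1, which binds the tract, had 9.32, 9.53, 9.62 and 9.69 in truncated and 10.11, 10.37, 9.75 and 9.75 in full-length mice. All truncated arrays were lower, by 0.57 on the means (limma, adjusted p = 0.379), though arrays 2 and 3 were close to each other. Arrays that did not overlap were found for 2 of the 15 regulators, beside 19% of all genes. Tsc1, an inhibitor of mTOR signalling, differed by -0.49. Of 19 chaperones, importers and late assembly factors of ribosomal proteins, 3 had a higher and 16 a lower value, with a median of -0.27. Nob1, the nuclease that finishes the RNA of the small subunit, had 8.05, 8.37, 8.22 and 8.29 in truncated and 9.22, 9.37, 8.86 and 8.88 in full-length mice. All truncated arrays were lower, by 0.96 on the means (8.17 ± 0.17 and 9.13 ± 0.13, SD, n = 2 animals each; limma, adjusted p = 0.170). Such a lack of overlap was found for 3 of the 19, beside 19% of all genes. Heatr3, known in humans as an importer of a large subunit protein, differed by -1.03 (limma, adjusted p = 0.372). Without both full-length arrays numbered 1, 8 of the 19 had a higher and 11 a lower value, and the median was -0.05.

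**Figure D5:**
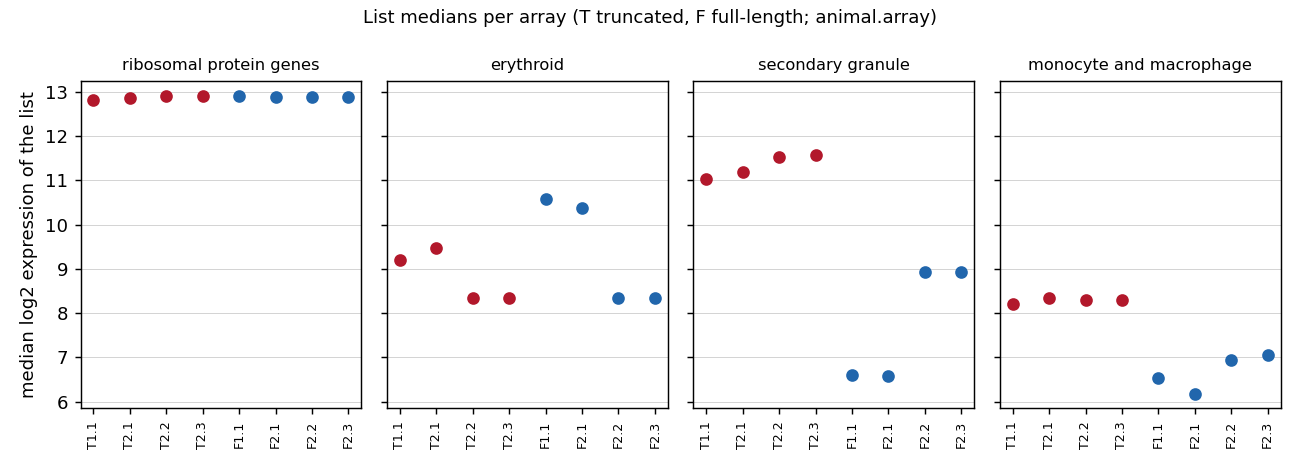
Median log2 signal of each array for the ribosomal protein genes and for the erythroid, secondary granule and monocyte and macrophage lists, with truncated arrays left of full-length arrays. The ribosomal protein medians lie between 12.81 and 12.91 on all 8 arrays, while the secondary granule medians lie between 11.03 and 11.56 in truncated and between 6.58 and 8.94 in full-length mice.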

How the data were processed

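Total RNA of leukemic spleen cells was labelled with biotin and hybridised to 8 Affymetrix arrays, per the labels' protocols. The authors deposited log2 values for 45101 probe sets. RMA is the tool in the submitters' processing notes, which give no version here. That the log is to base 2 follows from the values. RMA can draw the values of dim probe sets together, so their differences may be understated, which was not tested. No intensities of single probes and no detection calls were used, and the number of arrays limits the precision.

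Probe sets were named by the platform annotation, in which 34945 carried 1 symbol and 932 several. Of 18194 gene identifiers, 18032 were found in the GRCm38.p6 table, and 0 symbols changed. Of the 49 ribosomal protein genes, 25 had 1 probe set, and the probe set used ended in s_at, x_at or a_at for 2, 12 and 18 of them. Such probe sets, and those of genes with many processed pseudogenes, can match related sequences.

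Arrays were averaged per animal, since separate extractions are not stated. Genes with at least 2 of 4 animals above the median of all probe sets were kept. Genotypes were compared on log2 values in limma 3.58.1 (R 4.3.3, lmFit then eBayes), with 2 residual and 3.25 prior degrees of freedom and Benjamini-Hochberg adjustment over the 11386 genes. For 2 animals a side, the smallest two-sided exact permutation p is 0.333. Lists have counts and medians and no test. The ribosomal protein genes and all lists were chosen with earlier results of these data known.

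Array numbers shared by the genotypes were checked as pairs through the correlation of array deviations from the genotype mean over all genes. It was 0.231, 0.222 and 0.198 for arrays of the same number, and 0.219 and 0.207 for number 2 against number 3. The numbers come from the sample titles.

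Genes named one by one were those past the threshold, or, as none passed, the 8 per direction with the smallest p, together with stalk genes, paralogues with their parents, Rps6, Rps14, Rps19, Rpl11, Rpl41, Rpsa, the genes with the highest and lowest mean, and 2 of each other list with the smallest p. The ones of marker lists are given as lists only. The other probe sets of Rps9 and Rps24, and Nmd3 and Sbds, were added after their values were seen.

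Alternatives were the animal as a random block, the array number as a replicate block, the mean of all probe sets of a gene, no probe sets ending in s_at, x_at or a_at, no filter, arrays centred again on their median, an intensity trend with a robust prior, each animal or array left out, and array numbers taken apart.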

Additional observations from a re-analysis of the deposited data

Results flagged for a closer look

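In 7 of 56 groups of 4 arrays, formed by the 27 named ribosomal protein genes and the median of the 46 tested ones in the 2 genotypes, an array lay far from the other 3 by Dixon's test at the 95% level. Chance flags about 1 in 20 such groups. The 3 arrays of animal 2 are not independent.

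In truncated mice the array of animal 1 was the distant one for 4 genes. It was at 9.67 for Rpl27a, with the others between 7.38 and 7.61. It was at 6.79 for Rpl39 (others 6.45 to 6.48), at 12.96 for Rpl7a (all others at 13.04) and at 7.63 for Rps25 (others 7.37 to 7.39). In full-length mice the array of animal 1 was at 13.32 for Rpl41, with the others between 13.08 and 13.09. Array 1 of full-length animal 2 was at 6.02 for Rps27 (others 6.38 to 6.45) and at 6.52 for Rps6 (others 7.19 to 7.31). Of these 7 gaps, the one of Rpl27a exceeded 2 log2 units and the one of Rpl7a was under 0.1.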

How the results depend on the processing

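The limits are 2 animals per genotype, 1 array for animal 1, and dim probe sets whose differences RMA can draw together. The comparison was repeated under 20 alternatives. Of 526 values of the 27 named ribosomal protein genes, 17 reversed by more than the spread between animals and 5 passed the threshold, Rps4l among them. Moves that kept direction and call were set against that spread only for arrays 2 and 3 alone, where 10 values exceeded it. The other 494 were counted as unchanged, which under the remaining alternatives takes in larger moves. Rps6, for example, went from 0.71 to 0.40 with the mean of all probe sets. The count of all genes called by limma, 0 as reported, was 345 with the animal as a random block, 596 with the array number as a replicate block beside it, 2 with arrays centred again, 2998 with array 1 of every animal alone and 0 to 665 with an animal or array left out, the most without full-length animal 2. Full-length arrays 2 and 3 of animal 2, left out in turn, gave 344 and 427. The paired fit with the replicate block called 0 ribosomal protein genes. The count of those called was 4 with array 1 of every animal alone and 0 to 1 with an array of animal 2 left out (Rps4l without array 3 of full-length animal 2, limma, adjusted p = 0.0409). Rps4l was kept for testing through the truncated animals alone, so its calls under the alternatives carry no weight. The median difference of 0.018 was 0.096 for the 21 genes with probe sets free of the suffixes s_at, x_at and a_at, 11 of which were higher, and -0.039 without both full-length arrays numbered 1. The number of genes whose arrays did not overlap, 4 as reported, was 2 without these suffixes (18.9% of all genes), 16 without both full-length arrays numbered 1 (48.3%), 24 with array 1 of every animal alone (58.1%), 36 with arrays 2 and 3 alone (77.4%) and 4 to 26 with an animal or array left out (20.2% to 67.1%), where fewer arrays have to be separated. With the mean of all probe sets, the difference of Rpl22 was 0.012, of Rpl37a -0.074, of Rps20 -0.14 and of Rps4x 0.035, and that of Rpl22 was 0.10 without the suffixes. Without both full-length arrays numbered 1 it was -0.13 for Rpl37, -0.095 for Rps14, -0.029 for Rps19, -0.035 for Rps29 and 0.0036 for Rps4x. With arrays 2 and 3 alone, 1 animal per genotype and no test, it was 0.027 for Rpl22, -0.098 for Rpl39, 0.052 for Rpl7, -0.014 for Rplp2, -0.060 for Rps14, -0.052 for Rps19 and 0.011 for Rps4x. The cause of these reversals was not tested. Adjusted p over the alternatives ranged from 4.54e-09 to 0.417 for Rps4l, 0.00703 to 0.766 for Rps6 and 0.00536 to 0.990 for Rpl12. The range for Rps4l carries no weight either, for the same reason as its calls. Where a genotype kept 1 animal, it was assumed to vary like the other. The medians of the 4 lists of partner genes were added to the alternatives after the data were seen.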

Other observations

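A probe set of Rps9, a small subunit protein, differed most by array number. This x_at probe set was not the one used for Rps9. It had 8.26 and 8.03 on the truncated arrays numbered 1 and 12.20 and 12.21 on truncated arrays 2 and 3, against 9.37, 9.57, 12.21 and 12.24 on the full-length arrays in the same order. The genotypes were also apart on the arrays numbered 1, and not on arrays 2 and 3. The brighter probe set of Rps9 had 12.39, 12.68, 12.36 and 12.32 in truncated and 12.38, 12.37, 12.47 and 12.41 in full-length mice. What the array number stands for is not given, and the source of the gap was not tested.

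The assembly factors Nmd3 and Sbds, picked after their values were seen, had values below those of full-length mice on every truncated array. The same held for 8.77% of all genes. Among the 19 chaperones, importers and late assembly factors, 3 had arrays that did not overlap between the genotypes, beside 19% of all genes. Nmd3, the export adaptor of the large subunit, had 8.19, 7.98, 8.09 and 8.03 in truncated and 8.91, 8.66, 8.41 and 8.48 in full-length mice, a difference of -0.60. Sbds, which releases Eif6 from the large subunit and is mutated in Shwachman-Diamond syndrome in humans, had 8.37, 8.14, 8.23 and 8.22 in truncated and 8.73, 8.92, 8.59 and 8.57 in full-length mice, a difference of -0.43. Neither passed (limma, adjusted p = 0.379 for Nmd3 and 0.483 for Sbds). Eif6 itself, which keeps the subunits apart, differed by -0.01.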
